A study of Homo sapiens with 6 samples.

Results

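The genes described here encode the machinery that detects DNA and RNA in the cytosol: the sensors cGAS (gene CGAS), RIG-I (RIGI) and MDA5 (IFIH1), the adaptors STING (STING1) and MAVS, the kinase TBK1, the transcription factors IRF3 and IRF7, and the enzymes TREX1 and SAMHD1 that limit nucleic acids or their precursors. The genes were chosen with earlier results of these data known. Their probe sets were taken by name, as every probe set whose platform annotation gives 1 of these genes and no other. All 10 genes were found, on 29 of the 47481 probe sets of the array, and they are 10 of the 17534 genes measured. Expression had been profiled on Affymetrix PrimeView arrays, whose probe sets each report on the transcripts of a gene, with several probe sets for many genes.

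The first group was MM.1R cells given epirubicin hydrochloride, an anthracycline that traps topoisomerase II on DNA (3 arrays). The second was MM.1R cells that had received the control hairpin vector shCtrl by infection (3 arrays). MM.1R is a single human multiple myeloma line, resistant to glucocorticoids, and both groups were grown in the same serum-containing medium. The sources used here give neither a dose nor a duration. The labels name the vector for the shCtrl arrays alone, and whether the epirubicin cells were also infected is not stated. The drug and a possible difference in infection therefore cannot be told apart, which bears on genes that react to foreign nucleic acid. No label ties the replicates to separate cultures, so p-values and confidence intervals measure only the spread between these arrays, which may be technical.

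cGAS binds double-stranded DNA and makes the cyclic dinucleotide cGAMP, which activates STING at the endoplasmic reticulum. RIG-I and MDA5 bind double-stranded RNA and signal through MAVS on mitochondria. Both routes meet at TBK1, which phosphorylates IRF3 and IRF7. These factors then switch on type I interferon genes, and interferon in turn raises many of the sensors. IRF3 is made constitutively in most cells, whereas IRF7 is itself interferon-inducible in many of them.

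Array medians lay between 5.52 and 5.57 on the log2 scale, and no array stood apart from its group. Of 17534 genes, 765 (4.36%) were called higher with epirubicin and 376 (2.14%) lower, where a call needed a Benjamini-Hochberg adjusted p under 0.05 in limma and a fold change of at least 1.3. Of 10 plasma cell markers, 9 lay above the median of all values on every array, and 2, CD38 and IRF4, were called lower. The epirubicin arrays all lay below the shCtrl arrays for 8 of the 10, and 5 met the adjusted p downward at any fold. The other 2, SLAMF7 (0.23) and POU2AF1 (0.25), lay wholly above and met it upward. Of all genes, 20.1% lay wholly below and 23.8% wholly above, and 13.5% and 15.6% met the adjusted p downward and upward. The summed log2 level of these markers ran from 108.2 to 108.5 on epirubicin arrays and was 110.3 on every shCtrl array. This shift was not spread evenly: CD38 (-1.18) and IRF4 (-0.49) had the largest changes, and the median change was -0.09. Log2 fold changes are epirubicin minus shCtrl and carry the standard error (SE) and 95% confidence interval (CI) of the limma fit. In bulk RNA, more cells with a transcript and more transcript per cell cannot be told apart.

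With epirubicin, 2 of the 10 sensing genes rose, IRF7 by 1.58-fold and IFIH1 by 1.46-fold, and 0 were called lower, beside 4.36% and 2.14% of all genes. That is 1 transcription factor of the pathway and 1 sensor. The other 8 genes were not called. Of these, TREX1 and STING1 met the adjusted p in limma with changes of 1.20-fold and 1.17-fold, short of the fold threshold, so that 4 of the 10 genes passed upward at any fold and 0 downward, beside 15.6% and 13.5% of all genes. The median log2 fold change of the 10 genes was 0.15, beside 0.02 over all genes.

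**Figure D1:**
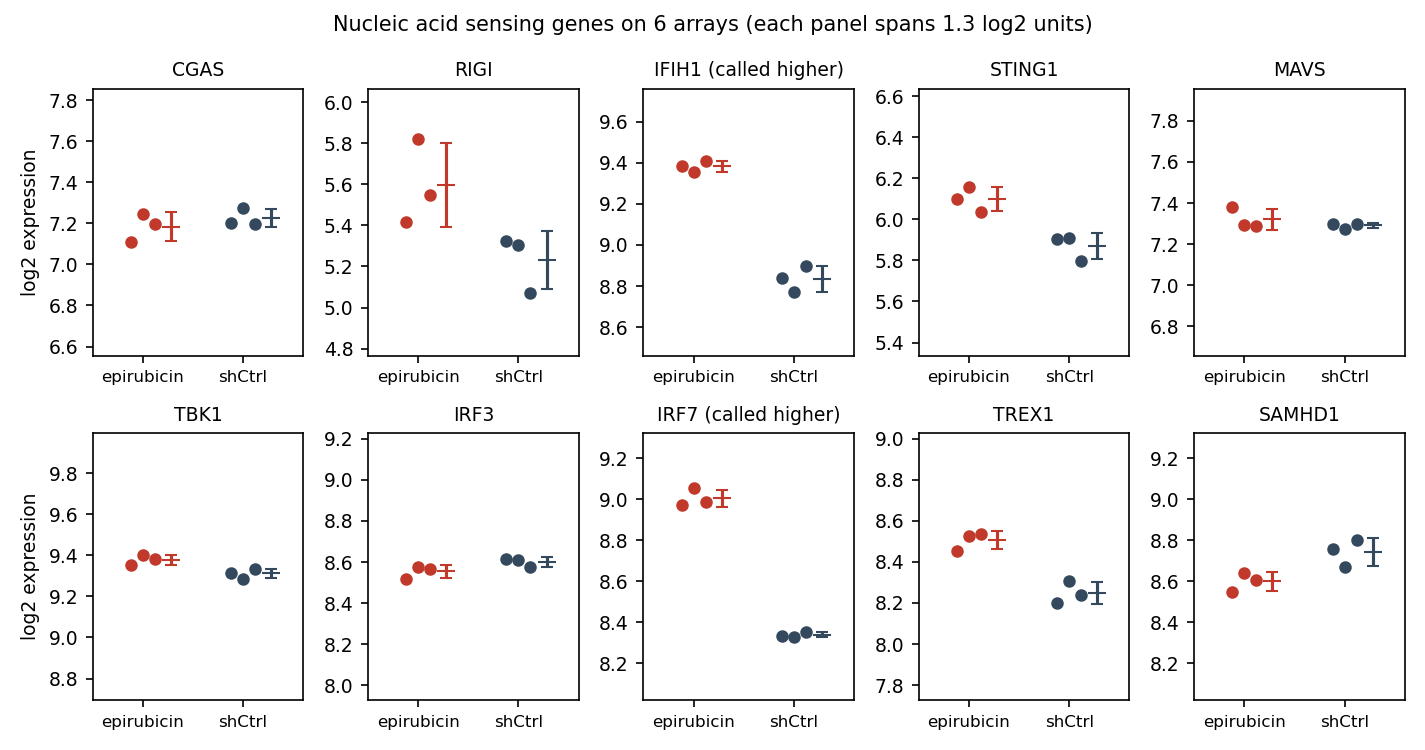
Log2 expression of the 10 genes on the 3 epirubicin arrays (red) and the 3 shCtrl arrays (dark blue), 1 panel per gene, each spanning 1.3 log2 units, with the group mean and SD beside the points. IRF7 and IFIH1 show the widest gaps between the groups, while CGAS, MAVS and IRF3 overlap.

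Among the RNA sensors, IFIH1 stood at 9.38, 9.36 and 9.41 on epirubicin arrays 1, 2 and 3, against 8.84, 8.77 and 8.90 on shCtrl arrays. All 3 epirubicin arrays lay above all 3 shCtrl arrays, by more than the spread within either group. The log2 fold change was 0.55 (SE 0.04, CI 0.45 to 0.65, limma adjusted p = 0.000245), and 376 genes of the array had a larger increase or 2.86% a larger change in either direction. A second, dimmer IFIH1 probe set, near 4.7 to 5.0, gave 0.16 (SE 0.06) and was not called (limma adjusted p = 0.117 over all probe sets). The mean over both probe sets, 0.35, fell short of the fold threshold, so the call on IFIH1 rests on its brighter probe set.

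RIGI, the other RNA sensor, read 5.42, 5.82 and 5.55 on epirubicin arrays, against 5.32, 5.30 and 5.07 on shCtrl arrays. The groups did not overlap, but the arrays of each group were spread more widely than for any other of the 10 genes, with an SD of 0.21 in epirubicin and 0.14 in shCtrl arrays (n = 3 each). Its log2 fold change of 0.36 (SE 0.12, CI 0.09 to 0.64) missed the test, with a limma adjusted p of 0.0572. At 1.29-fold it also fell just short of the fold threshold.

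The result for RIGI depended on the probe set. The dimmest of its 3 probe sets read 4.25, 4.35 and 4.35 on epirubicin arrays, against 3.79, 3.91 and 3.65 on shCtrl arrays, and was called higher (0.53, SE 0.07, limma adjusted p = 0.00240 over all probe sets). Its shCtrl mean was under the lower quartile of each array, where background was not examined, so the size of this change is uncertain. The remaining one gave 0.16 (SE 0.07). All 3 lay higher on every epirubicin array than on any shCtrl array. The gene's own probe set was also called when epirubicin replicate 1, the lowest of its group, was left out (0.45, limma adjusted p = 0.0392). It was not called when any of the other 5 arrays was left out, with log2 fold changes from 0.25 to 0.41 and limma adjusted p from 0.0845 to 0.150.

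CGAS, the DNA sensor, read 7.11, 7.25 and 7.20 on epirubicin arrays, against 7.20, 7.28 and 7.20 on shCtrl arrays. The groups overlapped. Its log2 fold change was -0.04 (SE 0.05, CI -0.15 to 0.07), an interval that lies within 1.3-fold in either direction, and its second probe set gave -0.06.

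Promoter windows are given for the 2 RNA sensors, whose probe sets all lay higher with epirubicin. The windows are RefSeq's for GRCh38.p14, from 250 bases before the transcription start to 50 bases after it, and 6 of the 10 genes matched that table: RIGI, IFIH1, MAVS, TBK1, TREX1 and SAMHD1. Capitals mark matches, on either strand, to paired GAAA repeats spaced by 1, 2 or 3 bases (GAAANGAAA, GAAANNGAAA and GAAANNNGAAA). The spacing of 2 bases is that of the interferon-stimulated response element bound by IRF factors. IFIH1 lies on the minus strand of chr2:162318635-162318934 and RIGI on the minus strand of chr9:32526147-32526446.
IFIH1: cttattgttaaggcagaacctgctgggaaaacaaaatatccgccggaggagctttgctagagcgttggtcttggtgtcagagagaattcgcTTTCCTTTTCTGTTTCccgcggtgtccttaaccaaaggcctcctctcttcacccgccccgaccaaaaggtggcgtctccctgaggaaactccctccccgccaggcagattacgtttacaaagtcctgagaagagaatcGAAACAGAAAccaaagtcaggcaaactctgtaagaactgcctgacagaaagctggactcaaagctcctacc
RIGI: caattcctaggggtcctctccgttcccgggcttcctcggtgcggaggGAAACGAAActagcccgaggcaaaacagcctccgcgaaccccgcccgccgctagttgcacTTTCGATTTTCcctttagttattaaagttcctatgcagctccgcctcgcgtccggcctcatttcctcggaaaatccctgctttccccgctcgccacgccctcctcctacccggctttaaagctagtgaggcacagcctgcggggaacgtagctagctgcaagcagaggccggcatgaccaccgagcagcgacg

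The IFIH1 window held 3 matches to GAAANNGAAA. One ran from -21 to -12 relative to the start, and 2 overlapping ones on the opposite strand from -159 to -144. The RIGI window held none with that spacing, but 1 match to GAAANGAAA from -203 to -195 and 1 to GAAANNNGAAA from -143 to -133. Of 27305 promoter windows of the same length, 3.65% held GAAANNGAAA, 3.22% GAAANGAAA and 2.94% GAAANNNGAAA. The windows of MAVS, TBK1, TREX1 and SAMHD1 held no match to these patterns. A match is a description of letters and shows no binding.

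Of the adaptors, STING1 read 6.10, 6.16 and 6.04 on epirubicin arrays, against 5.91, 5.91 and 5.80 on shCtrl arrays. The groups did not overlap, and the log2 fold change of 0.23 (SE 0.05, CI 0.11 to 0.34, limma adjusted p = 0.0138) stayed under the fold threshold. STING1 has 1 probe set.

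MAVS, the mitochondrial adaptor of both RNA sensors, read 7.38, 7.29 and 7.29 on epirubicin arrays, against 7.30, 7.27 and 7.30 on shCtrl arrays. The groups overlapped on all 7 of its probe sets, whose log2 fold changes ran from -0.07 to 0.13. For the probe set used it was 0.03 (CI -0.06 to 0.12).

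TBK1, the kinase on which both routes converge, read 9.35, 9.40 and 9.38 on epirubicin arrays, against 9.32, 9.29 and 9.33 on shCtrl arrays. These groups did not overlap, yet the gap was small: the log2 fold change was 0.06 (SE 0.03, CI -0.01 to 0.14, limma adjusted p = 0.190). The other TBK1 probe set gave -0.01.

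**Figure D2:**
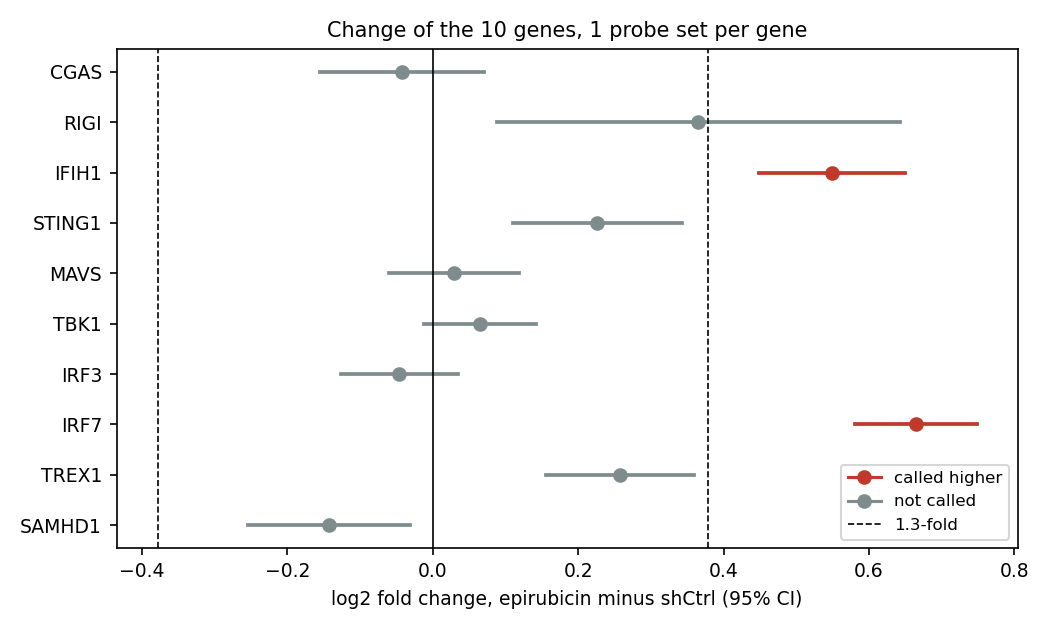
Log2 fold change of the 10 genes, epirubicin minus shCtrl, with limma's 95% CI (horizontal lines) and the 1.3-fold threshold (dashed). IRF7 and IFIH1 lie wholly beyond the threshold, the interval of RIGI crosses it, and those of the other 7 genes lie inside it.

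IRF7 had the largest change of the 10 genes. It read 8.97, 9.05 and 8.98 on epirubicin arrays, against 8.33, 8.33 and 8.35 on shCtrl arrays. The groups were far apart relative to their spread, with means of 9.003 ± 0.04 in epirubicin and 8.339 ± 0.01 in shCtrl arrays (SD, n = 3 each). The log2 fold change was 0.66 (SE 0.03, CI 0.58 to 0.75, limma adjusted p = 6.02e-05), and 1.67% of genes had a larger change in either direction. IRF7 has 1 probe set, so no second one is there to set beside it.

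IRF3, the constitutive partner of IRF7, read 8.52, 8.58 and 8.57 on epirubicin arrays, against 8.62, 8.61 and 8.57 on shCtrl arrays. The groups overlapped, and the log2 fold change was -0.05 (SE 0.03, CI -0.13 to 0.03). Its 6 probe sets ran from -0.09 to 0.03, and 0 were called. The difference in change between both factors, taken per array as IRF7 minus IRF3, was 0.71 on the log2 scale, with all 3 epirubicin arrays above all 3 shCtrl arrays (two-sided exact permutation test, p = 0.1, the lowest value that this design can give).

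Such differences were computed for 6 pairs of genes with related roles, and with 3 arrays a group none could reach p under 0.05. The change of IFIH1 exceeded that of CGAS by 0.59, the change of RIGI that of CGAS by 0.41, that of STING1 over MAVS by 0.20 and that of TREX1 over SAMHD1 by 0.40. In each of these pairs the groups did not overlap (exact permutation test, two-sided p = 0.1, 0.12 adjusted over the 6 pairs). IFIH1 against RIGI differed by 0.18 with overlapping groups (exact permutation test, two-sided p = 0.2 before and after adjustment). As for the other pairs, the test could not decide whether the changes of the 2 RNA sensors differ.

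TREX1, the exonuclease that degrades cytosolic DNA and so limits cGAS, read 8.45, 8.53 and 8.54 on epirubicin arrays, against 8.20, 8.31 and 8.24 on shCtrl arrays. The groups did not overlap. The log2 fold change was 0.26 (SE 0.04, CI 0.16 to 0.36, limma adjusted p = 0.00475), under the fold threshold. TREX1 has 1 probe set, whose name carries the suffix Affymetrix used for probes that can match several transcripts, and in RefSeq the gene lies within the span of ATRIP and the read-through gene ATRIP-TREX1. ATRIP, on a probe set of its own, lay in the opposite direction and was not called (-0.14, SE 0.05, limma adjusted p = 0.0829).

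SAMHD1, which hydrolyses deoxynucleotides and restrains nucleic acid release at stalled forks, was the only one of the 10 whose epirubicin arrays all lay below its shCtrl arrays. It read 8.55, 8.64 and 8.61 on epirubicin arrays, against 8.76, 8.67 and 8.80 on shCtrl arrays. The log2 fold change of -0.14 (SE 0.05, CI -0.25 to -0.03, limma adjusted p = 0.0616) was not called. All 4 SAMHD1 probe sets had groups that did not overlap, with log2 fold changes from -0.18 to -0.13, so the direction was shared and the size small. Those at -0.17 and -0.18 met the adjusted p under the fold threshold (limma adjusted p = 0.0186 and 0.0226 over all probe sets). So did the mean over probe sets (-0.15, limma adjusted p = 0.0113).

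**Figure D3:**
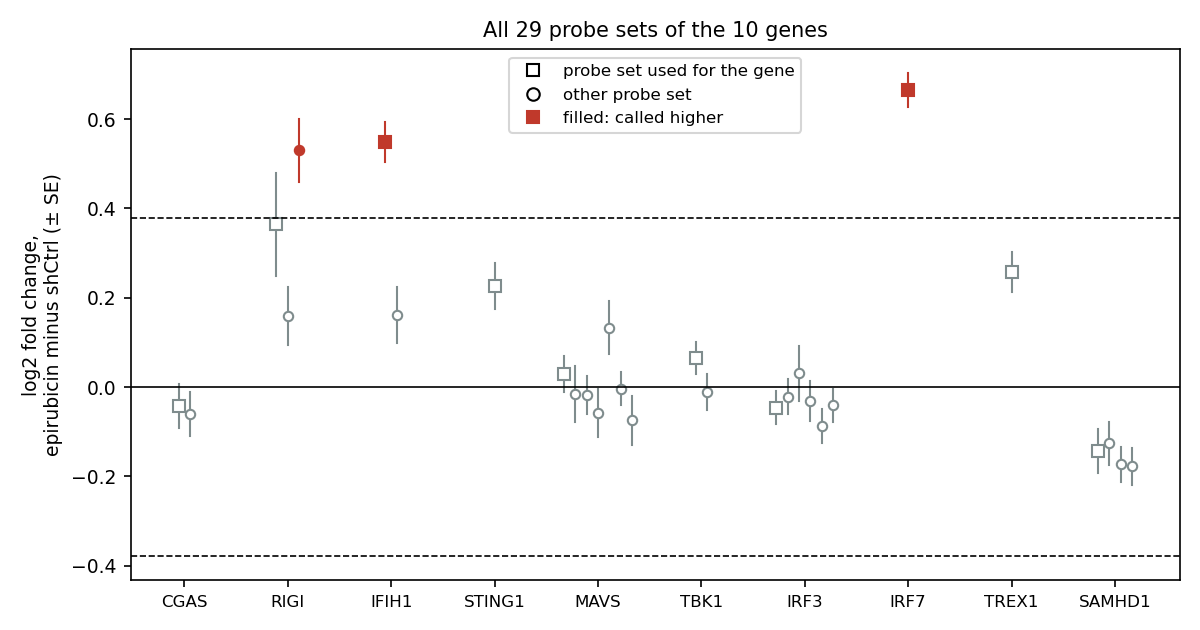
Log2 fold change (± SE) of all 29 probe sets of the 10 genes, epirubicin minus shCtrl, with squares for the probe set used for the gene, circles for the others and red fill for those called higher. The 3 called probe sets belong to RIGI, IFIH1 and IRF7, and those of MAVS and IRF3 lie around 0.

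Over all 29 probe sets, 3 were called higher and 0 lower, beside 3.65% and 2.62% of the 47481 probe sets of the array. In 14 of the 29 the groups did not overlap, 9 higher and 5 lower, where 20% and 21.1% of all probe sets had such groups. For genes, 7 of 10 had groups that did not overlap, 6 higher and 1 lower, where 43.8% of all genes had such groups, 23.8% higher and 20.1% lower. Of the 8 genes not called, 7 had a CI wholly within 1.3-fold in either direction, though these intervals cover only the spread between these arrays. RIGI is the exception.

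**Figure D4:**
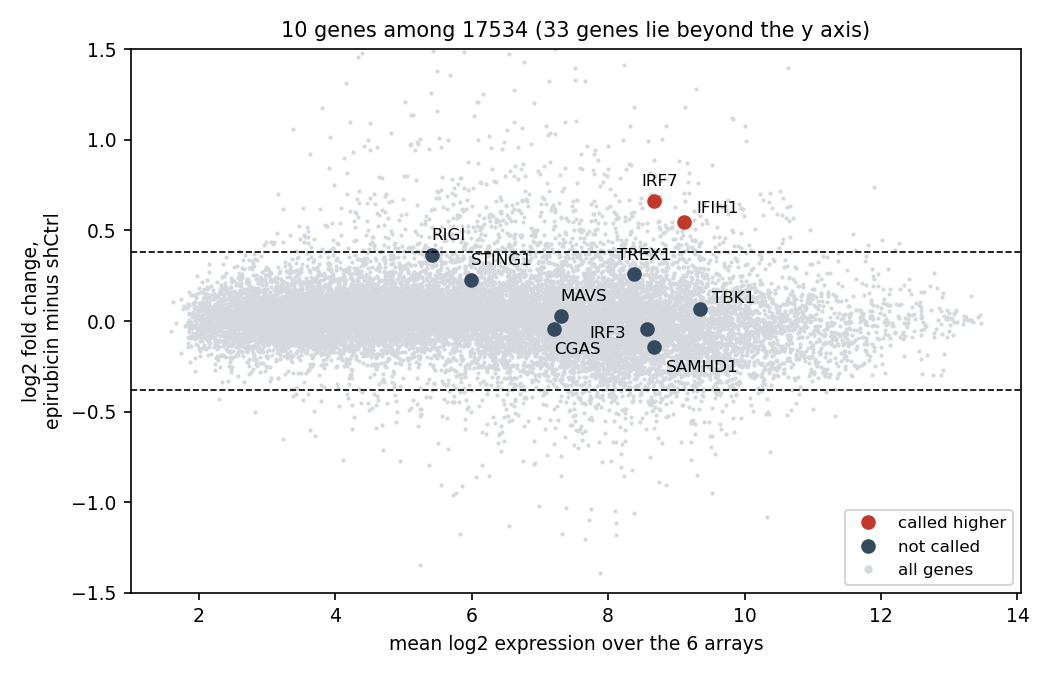
Log2 fold change against mean log2 expression over the 6 arrays for the 10 genes (large points) and for all 17534 genes (grey), with dashed lines at 1.3-fold; 33 genes lie beyond the vertical axis. IRF7 and IFIH1 lie above the upper line, and RIGI just under it.

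The wider pathway was described from lists of 124 other genes, chosen with earlier results of these data known, of which 114 were measured. Of these, 15 were called higher (13.2%, beside 4.36% of all genes) and 1 lower (beside 2.14%), with a median log2 fold change of 0.08. At any fold, 35 met the adjusted p upward and 8 downward, beside 15.6% and 13.5% of all genes. The calls were spread over sensors, regulators, cytokine signalling and target genes, and the interferon genes had none. The counts called in each list below stand beside the same 4.36% and 2.14% of all genes.

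Of 14 other sensors, 1 rose. IFI16, a nuclear and cytosolic DNA sensor that works with cGAS and STING, read 10.77, 10.83 and 10.78 on epirubicin arrays, against 10.37, 10.31 and 10.34 on shCtrl arrays. Its log2 fold change was 0.45 (SE 0.03), and all 3 of its probe sets were called. DHX58, which encodes LGP2, the third RIG-I-like receptor, was not called at 0.34 (SE 0.06, limma adjusted p = 0.00490), just under the fold threshold. DDX41, a helicase reported to sense DNA, and EIF2AK2, the RNA-activated kinase PKR, both named after their values were seen, met the adjusted p in the opposite direction at -0.25 (SE 0.06) and -0.20 (SE 0.04), under the fold threshold. The median of these sensors was 0.08, with a range of -0.25 to 0.45.

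Of 14 adaptors, kinases and cofactors, 1 rose: OPTN, which encodes optineurin, an adaptor that binds TBK1 (0.41, SE 0.03, on all 3 probe sets). IKBKE, the kinase most similar to TBK1, read 7.68, 7.70 and 7.66 on epirubicin arrays, against 7.42, 7.39 and 7.39 on shCtrl arrays. That is a log2 fold change of 0.28 (SE 0.03), a separation without overlap that stayed under the fold threshold. IRAK1, a kinase downstream of Toll-like receptors, named after its value was seen, lay lower without overlap and also under that threshold (-0.27, SE 0.03, limma adjusted p = 0.00159).

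Among 18 regulators of the pathway, 4 were called higher and 0 lower. At any fold, 7 met the adjusted p upward and 1 downward, beside 15.6% and 13.5% of all genes. The 1 downward was BANF1 (-0.30, SE 0.04), under the fold threshold, with 4 of 6 probe sets called lower. NLRC3, an inhibitor of STING and TBK1 signalling, was called at 0.82 (SE 0.07) on a dim probe set that read 4.60, 4.52 and 4.65 on epirubicin arrays, against 3.64, 3.85 and 3.82 on shCtrl arrays. Its shCtrl mean was under the lower quartile of each array, so the size of this change is uncertain. TNFAIP3, which encodes the ubiquitin-editing enzyme A20, rose by 0.50 (SE 0.04, 1 of 2 probe sets), and CYLD, a deubiquitinase that acts on RIG-I, by 0.39 (SE 0.03, 2 of 4 probe sets). The ubiquitin ligase gene TRIM32, whose product modifies STING, rose by 0.40 (SE 0.04, 1 of 3 probe sets). CYLD and TRIM32 lay close to the fold threshold.

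Of 12 genes of nucleic acid removal, 1 rose: DNASE2, the lysosomal DNase that clears engulfed and damaged DNA, by 0.48 (SE 0.05, 2 of 3 probe sets). ADAR, which edits double-stranded RNA and keeps MDA5 from binding it, was not called (-0.05, CI -0.13 to 0.02); it was named after its value was seen.

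**Figure D5:**
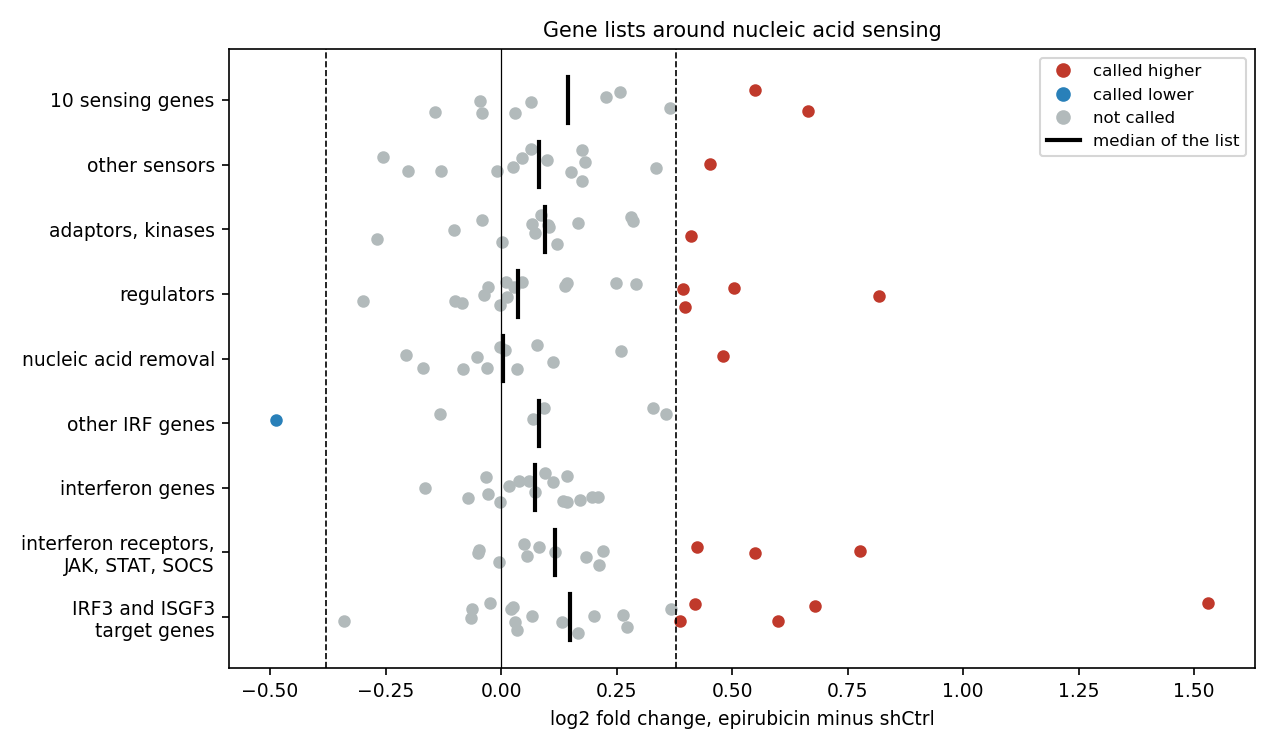
Log2 fold change, epirubicin minus shCtrl, of each measured gene in the 10 sensing genes and 8 lists around them, with a bar at each list's median and dashed lines at 1.3-fold. Called genes (red higher, blue lower) appear in 7 of the 8 surrounding lists, and the interferon genes hold none.

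Of 6 other IRF genes measured, 0 were called higher and 1 lower, IRF4, the factor on which myeloma cells depend (-0.49, SE 0.03, both probe sets). IRF9, the DNA-binding subunit of the interferon-activated complex ISGF3, read 7.79, 7.76 and 7.72 on epirubicin arrays, against 7.43, 7.37 and 7.40 on shCtrl arrays. It was not called, at 0.36 (SE 0.03, limma adjusted p = 0.000605), under the fold threshold. IRF5, a factor downstream of Toll-like receptors, named after its value was seen, likewise met the adjusted p without the fold (0.33, SE 0.05, limma adjusted p = 0.00244, 1 of 6 probe sets called). In 4 of the 6 genes the epirubicin arrays all lay above the shCtrl arrays, and in 2, IRF4 and IRF8, all lay below. Of all genes, 23.8% and 20.1% had such groups. The difference from IRF7 was not tested.

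The interferon genes themselves gave no call: of 17 measured, 0 were higher and 0 lower, and 14 had both group means below the lower quartile of every array, which lay at 3.84 to 3.90. IFNE alone among the 17 met the adjusted p in limma, at a fold under the threshold. IFNB1, the gene for interferon beta, read 2.83, 2.92 and 2.78 on epirubicin arrays, against 2.79, 2.58 and 2.74 on shCtrl arrays. The groups overlapped (0.14, CI -0.01 to 0.30, limma adjusted p = 0.154). Without detection calls, such dim probe sets cannot show whether an interferon transcript was present.

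Of 13 genes of interferon receptors and their signalling, 3 rose: SOCS1, a feedback inhibitor of JAK kinases (0.78, SE 0.05, 1 of 2 probe sets), STAT3, a transcription factor of cytokine signalling (0.55, SE 0.04, 2 of 3), and IL10RB, a receptor chain shared by interleukin 10 and interferon lambda (0.42, SE 0.05, 1 of 2).

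Target genes of IRF3 and ISGF3 were called in part, 5 of 20 higher and 0 lower, beside 4.36% and 2.14% of all genes. Their median was 0.15, beside 0.02. At any fold, 10 of the 20 met the adjusted p upward and 1 downward, beside 15.6% and 13.5% of all genes. The chemokine genes CXCL10 and CCL5 rose by 1.53 (SE 0.04) and 0.68 (SE 0.03). The antiviral GTPase genes MX2 and MX1 rose by 0.60 (SE 0.06) and 0.42 (SE 0.04), and the ubiquitin-like modifier gene ISG15 by 0.39 (SE 0.03). IFIT1, which binds viral RNA, met the adjusted p but not the fold threshold (0.17, SE 0.04, limma adjusted p = 0.0153). ISG20, an interferon-induced exonuclease, named after its value was seen, met the adjusted p downward at -0.34 (SE 0.04), under the fold threshold.

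The genes whose pattern over the 6 arrays was most like that of IRF7 were RASGRP3, TRAF4 and CCL5. Likeness was the root mean square distance between the log2 values of the arrays, each taken relative to the gene's shCtrl mean, and it was 0.013, 0.021 and 0.022 for these 3 genes. Their log2 fold changes were 0.67, 0.66 and 0.68. With 2 groups, such likeness mainly says that the changes were of similar size and the arrays of a group alike.

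Genes used as markers of other cells moved in the same comparison, although both groups were the single line MM.1R. Of 18 measured myeloid markers, 4 were called higher and 0 lower, beside 4.36% and 2.14% of all genes. These were ITGAM (3.75, SE 0.05), CD86 (0.67), CD68 (0.63) and S100A9 (0.53). The summed log2 level of the list ran from 83.4 to 84.3 on epirubicin arrays and from 76.4 to 77.0 on shCtrl arrays. This shift was not spread evenly, since ITGAM had the largest increase of all genes. The median change of the list was 0.13, and 12 of the 18 lay below the median of all values on every array. The myeloid markers CD14 and LYZ stayed below the lower quartile of every array. Of 10 stromal markers, ACTA2 (1.55, SE 0.25) and VIM (0.39, SE 0.03) were called higher, and the median change was 0.11. The summed level, which includes that large change of ACTA2, ran from 47.3 to 48.7 on epirubicin arrays and from 44.9 to 45.8 on shCtrl arrays. Of 7 dendritic cell, 15 T and NK cell and 8 epithelial markers, 0 were called by limma; 3, 4 and 0 of them met the adjusted p at folds under the threshold. Of the called markers, VIM, CD86 and CD68 had shCtrl means of 12.01, 7.21 and 6.87, above the median of all values (5.54). The shCtrl means of ITGAM, S100A9 and ACTA2 were 3.25, 4.99 and 4.34, below that median. In bulk RNA, a call on such a marker does not tell which cells carried the transcript. Whether other cells were present in these cultures of 1 line, and their part in the changes of IRF7 and IFIH1, was not tested.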

How the data were processed

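The table held log2 expression values as the authors deposited them, with a value for each of 47481 probe sets on each array. No label states the scale; values from 1.41 to 13.73, none missing, were taken as log2. The submitters' processing notes name the affy package without a version, and the sources used here do not say how background, normalization or probe summary were done. A normalization before deposit would remove changes in total RNA per cell. Scanner files and detection calls were not used here, and precision is limited by the number of arrays.

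Groups and replicate numbers came from sample titles. The platform annotation gave 1 symbol to 43976 probe sets, several to 1558 and none to 1947. Symbols were updated by Entrez number against RefSeq (GRCh38.p14), where 43954 matched. Each gene was represented by its brightest probe set by mean over the 6 arrays. The comparison used limma 3.58.1 under R 4.3.3 (lmFit, eBayes, no covariate) with Benjamini-Hochberg adjustment over 17534 genes, and again over all probe sets. Calls needed an adjusted p under 0.05 and a fold of at least 1.3, as the series' design text states. The fit was tested on simulated data.

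The 10 genes and the lists were chosen with earlier results of these data known. Named were all 10, up to 4 called genes per list and direction, 9 preset genes, of which 1 is not reported here, and the 3 genes nearest to the one with the largest change. Alternatives were other probe set choices, quantile normalization, a filter on dim genes, eBayes options, a replicate block, other fold thresholds and leaving out each array.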

Additional observations from a re-analysis of the deposited data

How the results depend on the processing

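IRF7 was called in all 15 alternatives run (log2 fold change 0.64 to 0.69) and IFIH1 in 13 of 15 (0.35 to 0.58). IFIH1 was not called as a mean over probe sets (0.35) or at a fold of at least 1.5. RIGI was called with the probe set of highest interquartile range (0.53) and without epirubicin replicate 1 (0.45). With the mean over probe sets, dim genes filtered or eBayes with trend, RIGI met the adjusted p but not the fold (limma adjusted p = 0.0131, 0.0179 and 0.00574). The count of sensing genes called higher was 1 with the mean over probe sets, 4 with no fold threshold and 1 at 1.5-fold. Among uncalled genes, MAVS changed sign as a mean over probe sets (-0.00101) and without epirubicin replicate 1 (-0.000665, with a range up to 0.0452 over the arrays left out), and IRF3 with the highest interquartile range (0.0309). The causes were not tested. With dim genes filtered, 13 other pathway genes and 2 probe sets of the 10 genes were higher, since NLRC3, MX2 and the dimmest RIGI probe set were then not tested.

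With no fold threshold, counts by construction grew to 2744 genes higher and 2362 lower, 5589 and 6318 probe sets, 35 and 8 other pathway genes, and 5 and 2 probe sets of the 10 genes. At a fold of 1.5 they were 320 and 101 genes, 700 and 292 probe sets, 5 and 0 other pathway genes, and 1 probe set of the 10 genes higher. With the highest interquartile range, 689 genes were lower. Other pathway genes called lower numbered 2 with that choice and 2 with means over probe sets.

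Replicate numbers did not pair the arrays: deviations of same-numbered arrays correlated at -0.03, 0.02 and 0.001 over probe sets. With the replicate block, 755 genes were higher and 372 lower, and 2 sensing genes were higher.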

Other observations

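The spacing found in the IFIH1 promoter window was looked up over all genes with a window of full length. Of 435 measured genes whose window held GAAANNGAAA on either strand, 34 (7.82%) were called higher with epirubicin and 10 (2.30%) lower. Of 13720 measured genes without it, 591 (4.31%) were higher and 306 (2.23%) lower. The median log2 fold changes were 0.02 in both sets. Of 46 genes with at least 2 matches, overlapping ones included, 8 were higher and 0 lower. IFIH1, whose window led to this search, is among these genes; without the 10 sensing genes, the counts were 33 of 434 higher with at least 1 match and 7 of 45 with at least 2. Among the 16 listed targets of IRF3 and ISGF3 with a window, 14 held the pattern. Listed targets were not left out of these counts, and of the 20 listed, 5 were called higher. These shares were not tested.

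BANF1, which encodes a DNA-bridging protein that keeps cGAS from nuclear DNA, was named after its values were seen. It read 9.05, 9.15 and 9.15 on epirubicin arrays, against 9.41, 9.44 and 9.40 on shCtrl arrays. The log2 fold change of -0.30 (SE 0.04) was under the fold threshold, although 4 of its 6 probe sets were called lower.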
